A study of Mus musculus with 8 samples.

Results

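The aminoacyl-tRNA synthetase genes of Ba/F3 cells were described in cells transformed with U2AF35 carrying S34F and in parental cells. The list names 36 synthetase genes, and each was matched by symbol to 1 Ensembl gene of the GRCm38 annotation, so that 36 of the 53465 genes in the count table are described here. They fall into 20 genes for cytosolic enzymes and 16 for mitochondrial enzymes, whose symbols end in 2. Ba/F3 is an immortalised mouse pro-B cell line of C3H background that grows on interleukin-3, and the labels do not say whether that cytokine was in the medium of either group. Polyadenylated RNA was sequenced from 5 libraries of cells labelled as transformed with U2AF35(S34F), numbered 4 to 8, and from 3 libraries of parental cells labelled U2AF35-WT, numbered 1 to 3. U2AF35, made from U2af1, is a splicing factor subunit that reads the 3′ splice site, and S34F is a substitution seen in blood cancers. The labels state no driving promoter for the introduced gene, no clone, and no separate cultures, so p-values measure the spread between these libraries, which may be technical.

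Aminoacyl-tRNA synthetases join each amino acid to its tRNA and so set the accuracy and supply of translation. One set works in the cytosol and another, encoded by separate nuclear genes, is imported into mitochondria and serves the proteins made there. Gars and Kars make enzymes for both compartments. Enzymes of class I and class II have unrelated catalytic folds. Several cytosolic enzymes sit in a multisynthetase complex held together by the scaffold proteins Aimp1, Aimp2 and Eef1e1. Many cytosolic synthetase genes are known targets of ATF4, the transcription factor made when eIF2 is phosphorylated under amino acid shortage or endoplasmic reticulum stress. In bulk RNA, fewer cells of a type and less RNA per cell cannot be told apart.

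Library totals ran from 36122062 to 50050922 counts in transformed cells and from 45025892 to 50305573 in parental cells, and transformed 7 was the shallowest. Transformed 4 and transformed 7 stood apart from the other transformed libraries. Chi-square per degree of freedom over genes was 110 or more in every pair with either of them, against 18 to 26.5 among transformed 5, 6 and 8 and 18 to 39.6 among the parental libraries. U2af1 had 92.0 CPM (counts scaled to library size with TMM factors) in transformed 7 and 128 to 157 CPM in the other transformed libraries, against 85.3 to 98.2 CPM in parental ones (log2 fold change 0.51, SE 0.16, edgeR adjusted p = 0.108). These counts do not separate an introduced copy from the cells' own gene. Of 11 pro-B markers, Cd79a and Cd79b reached 1 CPM in every library, while Rag1 and Il7r had 0 counts in all 8. Other pro-B markers, among them Ebf1 and Pax5, did not reach that level throughout. The summed pro-B markers spanned 54.3 to 77.6 CPM in transformed and 63.3 to 76.0 CPM in parental libraries. Summed mast cell and basophil markers (8 genes, with Fcer1a, Prss34 and Kit at 0) reached 1592 CPM in transformed 4, 439 to 647 CPM in the other transformed libraries and 714 to 871 CPM in parental ones. T cell and stroma markers summed to at most 4.14 and 0.424 CPM in a transformed library and at most 1.64 and 0.197 CPM in a parental one.

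Promoter sequence was read for the genes that had a window. RefSeq windows (GRCm38.p6, 250 bases before to 50 after an annotated start) were at hand for 27 of the 36 genes, 13 cytosolic and 14 mitochondrial. They were searched on both strands for TGATGNAA, the core of the C/EBP-ATF response element through which ATF4 acts. Of all 32851 such windows of 300 bases in the table, 3.97% held it. Among the synthetases it was found in 5 of the 13 cytosolic genes and in 0 of the 14 mitochondrial ones. The 5 are shown because all of them belong to the ATF4-target group whose levels are described below. That group had 8 genes with a window, and 0 of the 5 windows of other cytosolic genes held the motif. The group was drawn from reported ATF4 targets and ATF4 acts through this element, so its overlap with the motif is not independent. Sequences are on the strand of the gene, and the capitals mark the match, which reads TTNCATCA where it lies on the other strand.
Aars, chr8:111033592-111033891, plus strand: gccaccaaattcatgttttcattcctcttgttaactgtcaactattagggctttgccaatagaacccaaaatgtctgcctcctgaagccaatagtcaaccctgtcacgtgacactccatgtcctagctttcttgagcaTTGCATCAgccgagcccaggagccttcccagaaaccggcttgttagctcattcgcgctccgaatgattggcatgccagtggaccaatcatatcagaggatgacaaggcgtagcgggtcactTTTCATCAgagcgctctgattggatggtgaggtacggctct
Gars, chr6:55037751-55038050, plus strand: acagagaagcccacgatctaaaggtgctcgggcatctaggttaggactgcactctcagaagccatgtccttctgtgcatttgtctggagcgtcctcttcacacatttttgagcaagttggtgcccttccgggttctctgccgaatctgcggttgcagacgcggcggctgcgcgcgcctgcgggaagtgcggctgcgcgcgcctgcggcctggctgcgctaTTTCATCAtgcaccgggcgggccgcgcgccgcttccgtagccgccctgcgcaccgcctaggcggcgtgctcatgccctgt
Iars, chr13:49681880-49682179, plus strand: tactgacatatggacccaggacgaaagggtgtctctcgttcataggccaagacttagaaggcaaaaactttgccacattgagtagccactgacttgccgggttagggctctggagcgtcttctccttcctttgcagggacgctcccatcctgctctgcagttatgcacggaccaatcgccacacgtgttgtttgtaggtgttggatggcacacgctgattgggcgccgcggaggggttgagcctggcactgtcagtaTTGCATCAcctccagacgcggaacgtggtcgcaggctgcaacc
Tars, chr15:11399609-11399908, minus strand: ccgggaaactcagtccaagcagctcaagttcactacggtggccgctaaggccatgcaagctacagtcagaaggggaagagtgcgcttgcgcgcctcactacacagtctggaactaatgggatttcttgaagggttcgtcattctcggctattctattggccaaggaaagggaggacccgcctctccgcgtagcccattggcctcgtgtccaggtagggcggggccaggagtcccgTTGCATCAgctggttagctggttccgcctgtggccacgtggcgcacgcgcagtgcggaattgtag
Yars, chr4:129189653-129189952, plus strand: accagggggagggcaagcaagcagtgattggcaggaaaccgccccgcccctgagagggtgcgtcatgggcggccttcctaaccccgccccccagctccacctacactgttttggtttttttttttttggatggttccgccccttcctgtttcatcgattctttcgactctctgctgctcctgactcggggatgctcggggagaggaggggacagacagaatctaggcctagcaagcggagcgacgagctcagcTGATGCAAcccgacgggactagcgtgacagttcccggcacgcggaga
Counting the start base as 1, with no position 0, the match began at -112 and at 10 in Aars, at -30 in Gars, at 8 in Iars, at -15 in Tars and at 4 in Yars. Iars and Tars carried the same 8 letters as the upstream match of Aars, TTGCATCA, and Yars carried the same element on the other strand, TGATGCAA. Gars and the downstream match of Aars read TTTCATCA. A match describes the letters and does not show that a factor binds there.

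Cytosolic synthetase transcripts were far more abundant than mitochondrial ones. Per kilobase of annotated exon, the median cytosolic gene had 59.0 CPM in transformed cells and 44.4 CPM in parental cells, with ranges of 24.7 to 215 and 18.0 to 147. The median mitochondrial gene had 6.01 CPM per kilobase in transformed and 6.13 in parental cells, with ranges of 2.07 to 15.7 and 1.72 to 13.3. Gars, for glycine, was highest per kilobase in both groups (215 transformed, 147 parental). Nars, for asparagine, followed at 160 and 95.8, and Vars, for valine, at 92.1 and 93.7. The lowest cytosolic gene was Qars, for glutamine, in transformed cells (24.7, and 31.7 in parental cells) and Cars, for cysteine, in parental cells (25.7 transformed, 18.0 parental). Rars2, for arginine, led the mitochondrial genes in transformed cells (15.7, and 11.2 in parental cells), and Iars2, for isoleucine, led them in parental cells (13.6 transformed, 13.3 parental). Ears2, for glutamate, was lowest in both groups, at 2.07 in transformed and 1.72 in parental cells. In all 16 pairs of a cytosolic gene and the mitochondrial gene for the same amino acid, the cytosolic one was higher per kilobase in parental cells, from 3.14-fold for Iars over Iars2 to 40.4-fold for Nars over Nars2. The exon length joins all annotated transcript forms, so a gene whose joined length exceeds its main transcript is set lower than that transcript would be. Which forms were in use was not tested. The longest were Eprs (18102 bases) among cytosolic and Mars2 (11294 bases) among mitochondrial genes.

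All 36 genes passed the low-count filter, with between 350 counts (Pars2) and 46520 counts (Nars) in a library. In edgeR's quasi-likelihood test, 0 of the 36 passed an adjusted p of 0.05, where 3.01% of all 17733 tested genes did, 0.908% higher and 2.1% lower in transformed cells. Without adjustment, 13 members had p under 0.05, 11 higher and 2 lower, against 22.2% of all genes, 10.6% higher and 11.6% lower. The groups did not overlap for 6 members. All 5 transformed libraries lay above all 3 parental ones for Dars, Farsb, Rars, Nars2 and Rars2, where 8.07% of all genes did so, and below them for Qars, where 9.69% did. DESeq2 called 4 members, Dars, Farsb and Nars2 as higher and Qars as lower, with 10.5% of all genes called. In lane 6 alone 7 members passed, with 20.4% of all genes called. Without transformed 4, 7 members passed (Dars, Farsb, Hars, Mars2, Nars2 and Wars2 higher, Qars lower, with 15.5% of all genes), and without transformed 7, Farsb alone passed (7.62% of all genes). Leaving out both gave 11 of 36 members at 28.9% of all genes. Leaving out parental 1 and transformed 7 together gave 5 members (Cars, Farsb, Gars, Iars and Tars) at 3.01% of all genes. That setting was added after the data were seen, and its libraries were picked because they were highest for these genes, so its calls support nothing.

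**Figure D1:**
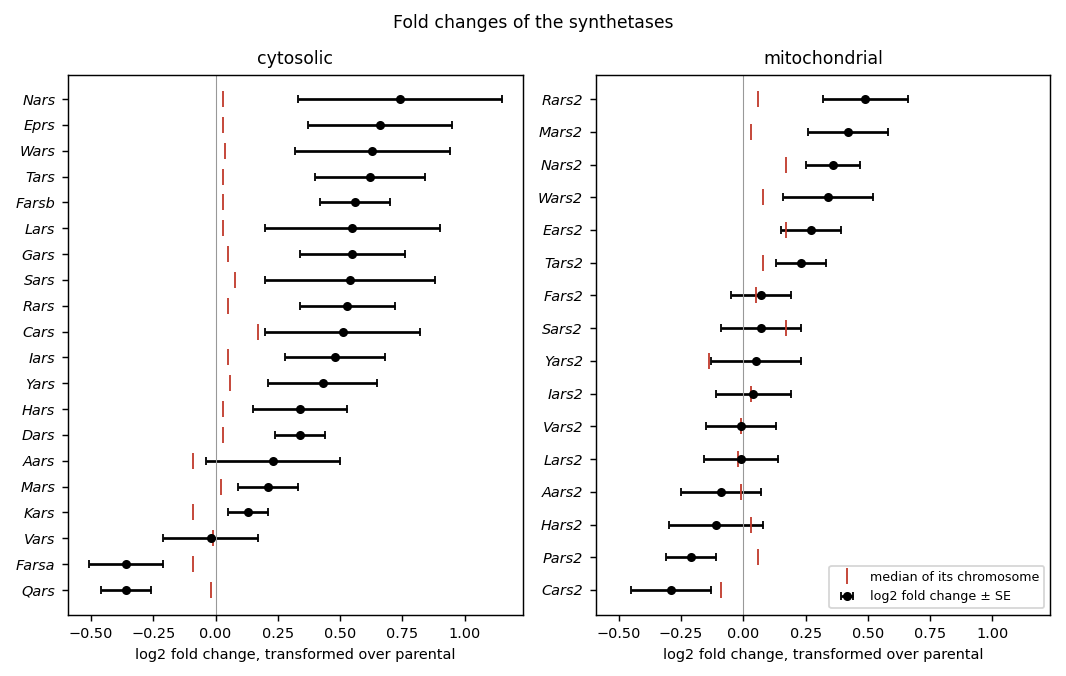
Log2 fold change, transformed over parental, with its standard error as a bar, for the 20 cytosolic genes (left) and 16 mitochondrial genes (right), with a red tick at the median log2 fold change of all tested genes on the same chromosome. Cytosolic genes run from -0.36 (Qars and Farsa) to 0.74 (Nars) and mitochondrial genes from -0.29 (Cars2) to 0.49 (Rars2).

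Of the 20 cytosolic genes, 17 had positive log2 fold changes and the median was 0.50, beside a median of 0.02 and 52.3% positive over all tested genes. The list was divided by background knowledge into 12 genes reported as ATF4 targets (Aars, Cars, Eprs, Gars, Iars, Lars, Mars, Nars, Sars, Tars, Wars and Yars) and 8 others. That division was made with earlier results of these data known, so counts over the 12 describe them and test nothing. All 12 were positive, from 0.21 in Mars, for methionine, to 0.74 in Nars, with a median of 0.55. None of the 12 separated the groups, and parental 1 lay above the lowest transformed library in each. In Aars and Lars the lowest transformed library was also below parental 2 (364 against 375 CPM and 183 against 202 CPM).

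Nars showed the pattern at its widest. It had 389, 476, 678, 1329 and 610 CPM in transformed 4, 5, 6, 7 and 8, and 592, 329 and 330 CPM in parental 1, 2 and 3. Transformed 7 was far above every other library, and parental 1 exceeded transformed 4 and 5. The log2 fold change was 0.74 (SE 0.41, edgeR adjusted p = 0.325). Eprs, the joined enzyme for glutamate and proline, had 473, 525, 628, 1166 and 632 CPM in transformed 4 to 8, and 520, 396 and 388 CPM in parental 1 to 3. Here transformed 4 alone lay within the parental range (log2 fold change 0.66, SE 0.29, edgeR adjusted p = 0.220). It passed when transformed 4 and 7 were both left out (edgeR adjusted p = 0.0257). Tars, for threonine, had the smallest p of the 12, with 331, 268, 355, 496 and 312 CPM in transformed 4 to 8 and 297, 200 and 192 CPM in parental 1 to 3. Transformed 5 lay below parental 1, and the other 4 transformed libraries were above all parental ones. Its log2 fold change was 0.62 (SE 0.22, edgeR adjusted p = 0.142). Sars, for serine, had 683 CPM in transformed 7 and 238 to 320 CPM in the other transformed libraries, against 322 CPM in parental 1 and 219 and 211 CPM in parental 2 and 3. Gars had 536 to 902 CPM in transformed cells, against 603, 387 and 386 CPM in parental 1 to 3. Cars had the widest gap within the parental group as a ratio, with 188, 82.3 and 84.8 CPM in parental 1 to 3, against 126 to 230 CPM in transformed cells. Mars, by contrast, spanned only 148 to 156 CPM in the 5 transformed libraries, against 160, 123 and 112 CPM in parental 1 to 3. The 5 remaining genes of the subset also had their highest value in transformed 7. Aars, for alanine, had 408, 364, 490, 816 and 427 CPM in transformed 4 to 8, and 539, 375 and 371 CPM in parental 1 to 3. Only transformed 7 exceeded parental 1, and the log2 fold change was 0.23 (SE 0.27). Lars, for leucine, and Wars, for tryptophan, reached 581 and 468 CPM in transformed 7, against at most 306 and 210 CPM in a parental library. Iars, for isoleucine, spanned 255 to 408 CPM in transformed and 187 to 284 CPM in parental libraries, and Yars, for tyrosine, 157 to 270 CPM and 123 to 192 CPM. Mars shares 1.99% of its exon bases with Ddit3, and Aars 15.1% with other annotated genes, among them Exosc6. Cars shares 3.21% and Yars 0.5% with other annotated genes. The sources used here name no strand setting, so counts in shared stretches are uncertain.

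**Figure D2:**
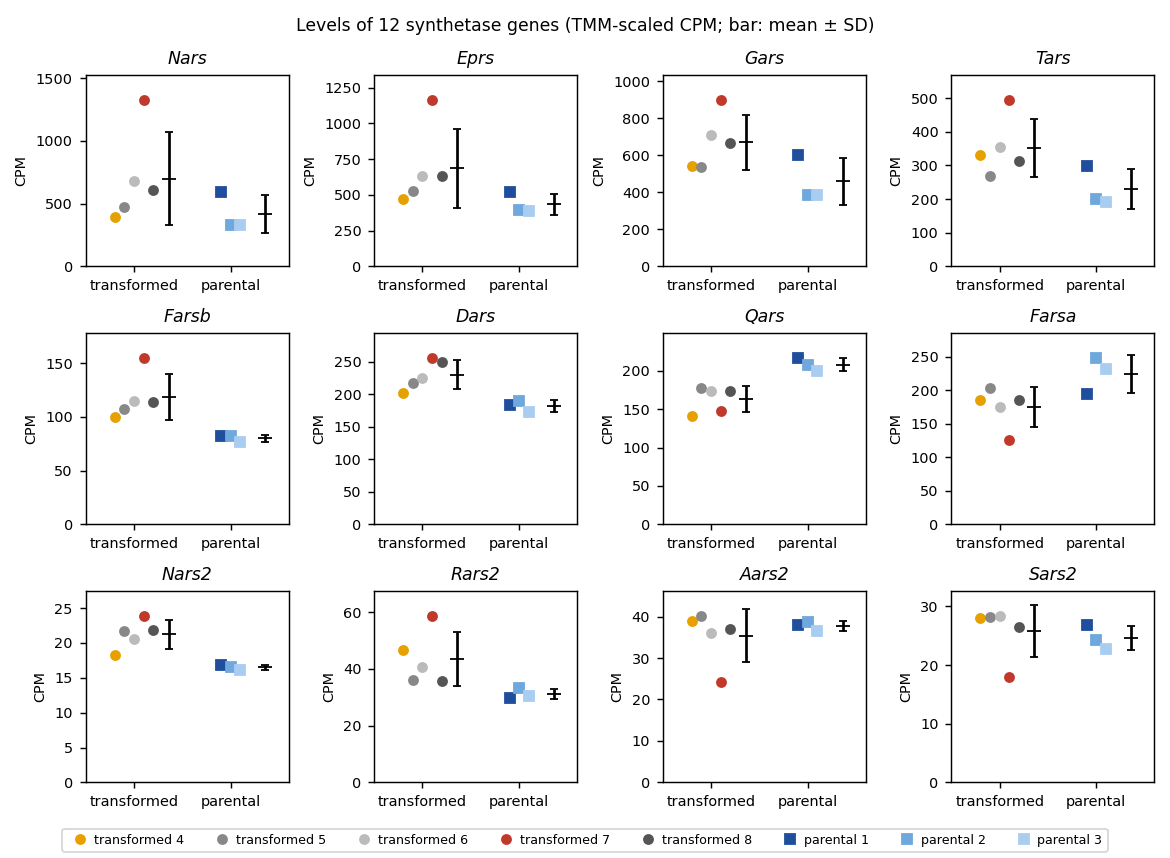
CPM (vertical axes, linear, from 0) of 12 synthetase genes in the 5 transformed libraries (circles) and 3 parental libraries (squares), each library in its own colour, and bars give the group mean ± SD. Nars, Eprs, Gars and Tars share a high transformed 7 and a high parental 1, Farsb, Dars, Nars2 and Rars2 lie higher without overlap, Qars lies lower without overlap, and Aars2 and Sars2 are lowest in transformed 7 (24.3 and 18.0 CPM).

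The same libraries led gene after gene. Parental 1 was the highest parental library for 12 of the 12 ATF4-subset genes, against 34.5% of all tested genes, and transformed 7 was the highest of the 8 libraries for 11 of 12, against 26.7% of all genes. Mean log2 CPM of the 12, relative to the parental mean, was 0.17, 0.17, 0.55, 1.14 and 0.40 in transformed 4 to 8, and 0.42, -0.18 and -0.24 in parental 1 to 3. Transformed 4, 5 and 8 thus lay below parental 1. The median log2 fold change of the 12 was 0.81 without parental 1 and 0.34 without transformed 7. Within lane 6, which holds parental 1 and 3 with transformed 5 and 8, it was 0.23, below the 0.33 of the other 8 cytosolic genes. Within lane 7, which holds parental 2 with transformed 4, 6 and 7, it was 0.90, and 0.14 in the other 8. The 28 tested genes of a list of other ATF4 targets, chosen without synthetases, ran in the same order of libraries at the top, with means of 1.62 in transformed 7, 0.66 in transformed 6, 0.50 in transformed 8 and 0.11 and 0.07 in transformed 4 and 5, against 0.54, -0.30 and -0.24 in parental 1 to 3. Parental 1 was the highest parental library for all 28 of them. That list, like the 12, was chosen with earlier results of these data known, so its values describe it and test nothing. Summed granulocyte and macrophage markers (8 genes, 4 of them at 1 CPM or more in every library and none at 0 throughout) were also highest in transformed 7 among transformed libraries (425 CPM, range from 105 CPM in transformed 4) and in parental 1 among parental ones (416 CPM, range from 325 CPM). Transformed 7 was the shallowest library as well, and the part of these differences in the synthetase levels was not tested.

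**Figure D3:**
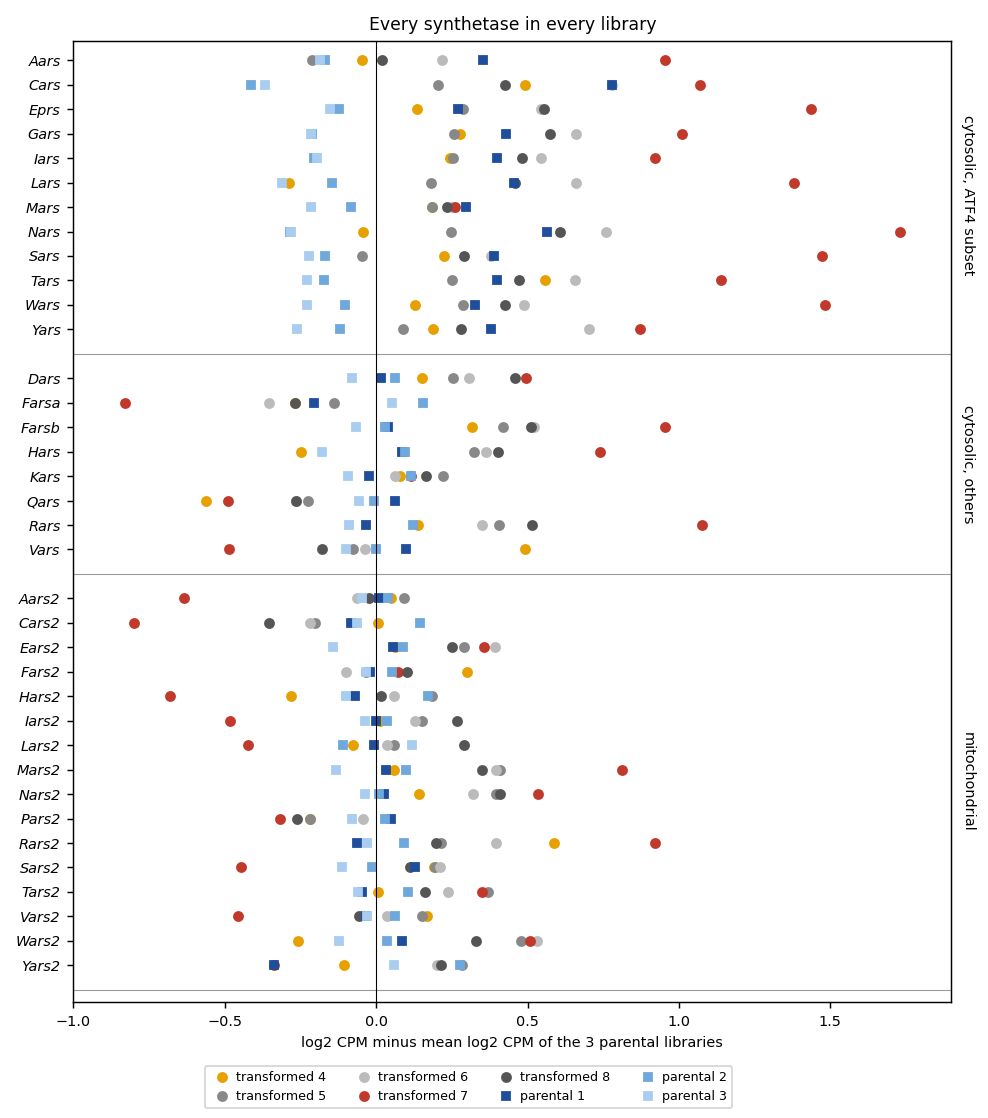
Log2 CPM of each of the 36 genes per library on a scale where the parental mean is 0 (horizontal axis), with circles for transformed and squares for parental libraries. In the ATF4 subset transformed 7 is the highest library for all genes but Mars and parental 1 the highest parental one, whereas among mitochondrial genes transformed 7 is the lowest library for 9 of 16.

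The 8 cytosolic genes outside that subset behaved differently from each other, with a median log2 fold change of 0.23 and a range from -0.36 to 0.56. Farsb, the beta subunit of the phenylalanine enzyme (chromosome 1, 78417975 to 78488897), had 99.8, 107, 115, 155 and 114 CPM in transformed 4 to 8, and 82.2, 81.7 and 76.4 CPM in parental 1 to 3. Every transformed library was above every parental one. It had the smallest p of all 36 genes (log2 fold change 0.56, SE 0.14, edgeR adjusted p = 0.0649) and passed in 6 of 17 alternative settings, 1 of them the setting whose libraries were picked on these genes, with adjusted p from 0.000836 to 0.9996 over them. It shares 9.47% of its exon bases with Sgpp2. Its partner Farsa, the alpha subunit of the same enzyme (chromosome 8), had the opposite sign, with 186, 203, 175, 126 and 186 CPM in transformed 4 to 8, and 194, 249 and 232 CPM in parental 1 to 3. Only transformed 5 reached into the parental range (log2 fold change -0.36, SE 0.15, edgeR adjusted p = 0.206). Per kilobase of exon, Farsb averaged 45.1 CPM and Farsa 38.6 CPM in transformed cells, against 30.6 and 49.6 CPM in parental cells.

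Dars, for aspartate, a member of the multisynthetase complex (chromosome 1, 128363707 to 128417368), had 202, 217, 225, 256 and 250 CPM in transformed 4 to 8, and 184, 190 and 172 CPM in parental 1 to 3. The groups did not overlap, and the log2 fold change was 0.34 (SE 0.10, edgeR adjusted p = 0.0953). Rars, for arginine, also in the complex, had 178, 214, 206, 341 and 231 CPM in transformed 4 to 8, and 158, 176 and 152 CPM in parental 1 to 3. Transformed 4 only just cleared parental 2 (log2 fold change 0.53, SE 0.19, edgeR adjusted p = 0.156). Qars, for glutamine, another gene of the complex (chromosome 9, 108507706 to 108515941), was the 1 member lower in every transformed library. It had 141, 178, 173, 148 and 173 CPM in transformed 4 to 8, and 217, 207 and 200 CPM in parental 1 to 3, a log2 fold change of -0.36 (SE 0.10, edgeR adjusted p = 0.0822). It passed as lower in DESeq2 and in edgeR without transformed 4 or without transformed 4 and 7 (lowest adjusted p = 0.0128). Kars, for lysine, varied least among these 8, at 332 to 370 CPM in transformed and 298 to 344 CPM in parental libraries. Hars, for histidine, ranged from 119 CPM in transformed 4 to 236 CPM in transformed 7, against 125 to 151 CPM in parental cells, and it shares 7.97% of its exon bases with Hars2. Vars had its highest value in transformed 4 and its lowest in transformed 7, with 737 CPM in transformed 4 and 375 CPM in transformed 7, against 490 to 562 CPM in parental libraries (log2 fold change -0.02, SE 0.19), and its sign changed in 5 of the 17 alternatives.

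The 16 mitochondrial genes had a median log2 fold change of 0.06, 10 positive and 6 negative. Nars2, for asparagine (chromosome 7, 96951505 to 97064758), had the smallest p, with 18.2, 21.7, 20.6, 23.9 and 21.9 CPM in transformed 4 to 8, and 16.8, 16.6 and 16.1 CPM in parental 1 to 3. The groups were fully apart (log2 fold change 0.36, SE 0.11, edgeR adjusted p = 0.0953), and genes of chromosome 7 had a median of 0.17. Rars2, for arginine (chromosome 4, 34614957 to 34660167), had 46.6, 36, 40.8, 58.7 and 35.6 CPM in transformed 4 to 8, and 29.7, 33.1 and 30.4 CPM in parental 1 to 3. It too was higher in each transformed library (log2 fold change 0.49, SE 0.17, edgeR adjusted p = 0.140). Mars2, for methionine (chromosome 1), had 45.3, 57.8, 57.3, 76.4 and 55.4 CPM in transformed 4 to 8, and 44.5, 46.6 and 39.7 CPM in parental 1 to 3. Transformed 4 overlapped parental 2 (log2 fold change 0.42, SE 0.16, edgeR adjusted p = 0.160). Ears2, for glutamate (chromosome 7), had 9.23 to 11.6 CPM in transformed and 8.0 to 9.39 CPM in parental libraries (log2 fold change 0.27, SE 0.12, edgeR adjusted p = 0.222). Tars2 and Wars2, for threonine and tryptophan, lay above all parental libraries in 4 of 5 transformed ones each, and in both transformed 4 was the exception. Cars2, for cysteine, and Pars2, for proline, lay below all parental libraries in 4 of 5, with log2 fold changes of -0.29 and -0.21. Fars2, for phenylalanine, and Yars2, for tyrosine, overlapped widely, at 12.6 to 16.6 CPM and 15.4 to 23.7 CPM in transformed libraries, against 13.2 to 14.0 CPM and 15.4 to 23.6 CPM in parental ones.

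The mitochondrial genes did not follow the cytosolic ones in transformed 7. It was the lowest of the 8 libraries for 9 of 16 mitochondrial genes and the highest for 3, where 27% and 26.7% of all genes had it as lowest and highest. Aars2, for alanine, had 39.0, 40.2, 36.1, 24.3 and 37.1 CPM in transformed 4 to 8, and 37.9, 38.7 and 36.5 CPM in parental 1 to 3. The other 4 transformed libraries spanned 36.1 to 40.2 CPM, around the parental values. Sars2, for serine, had 28, 28.1, 28.4, 18.0 and 26.5 CPM in transformed 4 to 8, and 26.8, 24.3 and 22.7 CPM in parental 1 to 3. Hars2, Iars2, Lars2, Vars2 and Cars2 had their lowest value in transformed 7 too, at 15.9, 84.5, 68.3, 27.4 and 21.6 CPM. Iars2 shares 24.2% of its exon bases with other annotated genes, so part of its counts is uncertain. The same holds for Fars2 (10.7%), Vars2 (8.52%), Cars2 (5.83%), Hars2 (4.56%), Nars2 (4.08%) and Ears2 (1.73%). Lars2, for leucine, and Vars2, for valine, had log2 fold changes of -0.01 each and took either sign across settings.

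Set against each other, the median log2 fold change was 0.44 higher in cytosolic than in mitochondrial genes. Mean log2 CPM of the cytosolic minus that of the mitochondrial genes, relative to parental cells, was 0.07, -0.02, 0.22, 0.83 and 0.18 in transformed 4 to 8, and 0.27, -0.15 and -0.12 in parental 1 to 3. Parental 1 was therefore above all transformed libraries but transformed 7. Within lane 7 the difference of medians was 0.67 (0.67 cytosolic, -0.01 mitochondrial), whereas within lane 6 it was 0.03 (0.25 and 0.23), so the difference between compartments did not hold in lane 6. Without transformed 7 it was 0.16 (0.30 and 0.14), and without parental 1 it was 0.56 (0.62 and 0.06). Lane 7 has 1 parental library, which is assumed to vary like the others.

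Of 16 cytosolic to mitochondrial pairs, 13 had a higher ratio in transformed cells on average and 3 a lower one. Eprs was paired with both Ears2 and Pars2. Fars2 was paired with Farsa alone, although Farsb, the other subunit, had the opposite sign to Farsa. The Eprs to Pars2 ratio alone was higher in 5 of 5 transformed libraries, with log2 values of 5.47, 5.62, 5.70, 6.87 and 5.92 in transformed 4 to 8, and 5.33, 4.96 and 5.04 in parental 1 to 3. No ratio was lower in all 5. Transformed 7 held the highest of the 8 values in 12 pairs, and parental 1 the highest parental value in 14. The largest average difference was in Cars over Cars2 (log2 ratio 2.45 ± 0.59 in transformed cells, SD, n = 5, and 1.54 ± 0.76 in parental cells, SD, n = 3). The Farsa to Fars2 ratio was lower, at 3.61 ± 0.31 in transformed and 4.05 ± 0.16 in parental cells, and Mars over Mars2 was at 1.40 ± 0.25 and 1.58 ± 0.24. Rars over Rars2, both of which were higher in all transformed libraries, differed by 0.03 (2.41 ± 0.30 and 2.38 ± 0.05).

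**Figure D4:**
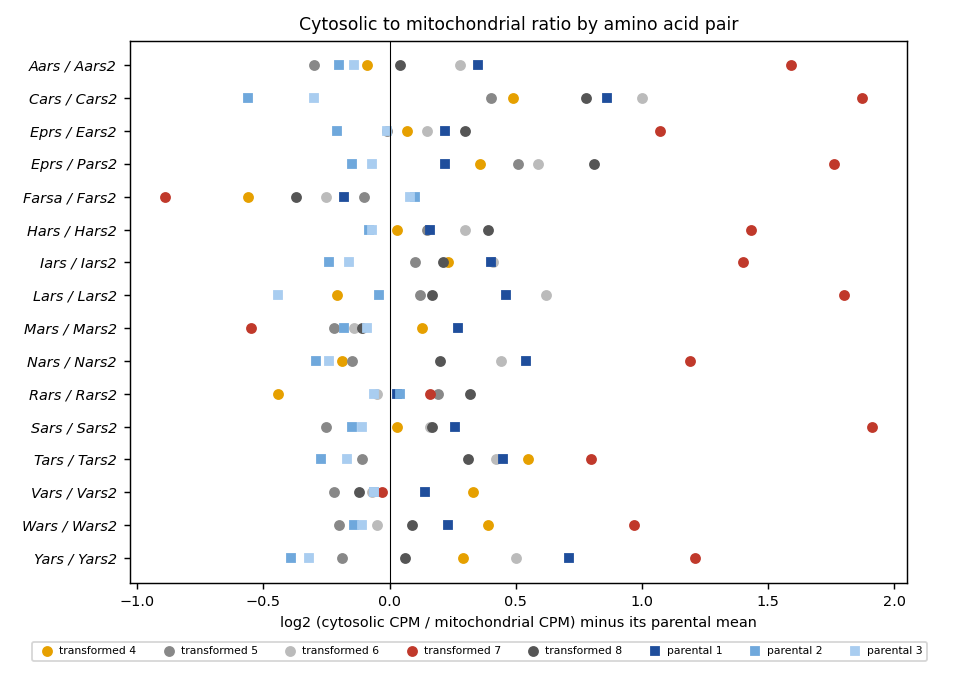
Log2 ratio of cytosolic to mitochondrial CPM for the 16 amino acid pairs, with the parental mean set to 0 (horizontal axis), in transformed (circles) and parental (squares) libraries. Transformed 7 is the highest value in 12 pairs and the lowest for Farsa / Fars2 and Mars / Mars2.

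By catalytic class, cytosolic class I genes (9) and class II genes (10) had median log2 fold changes of 0.48 and 0.44, leaving out Eprs, which joins both. The 8 genes of the multisynthetase complex had a median of 0.41 and the 12 others 0.53. No member lies on chromosomes 2 or 19, whose genes had the lowest autosomal medians, -0.15 and -0.34. Relative to the median of its own chromosome, Nars was at 0.70, Farsb at 0.53, Qars at -0.34, Farsa at -0.27 and Nars2 at 0.19.

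Related genes of tRNA charging and translation were read from lists in the same fit, and 0 of their tested genes passed an adjusted p of 0.05 in edgeR. Among those given by name below, DESeq2 called Eef1e1, Xpot, Phgdh, Eif2s1, Elac2, Polr3d, Polr3e and Gfm2, where it called 10.5% of all tested genes. The names were picked by smallest p in each list, so these calls are not a count over the lists. The lists were chosen with earlier results of these data known, so counts over them are descriptions. All 3 scaffold genes of the multisynthetase complex were positive, 2 of them with an unadjusted p under 0.05. Eef1e1 had 33.1, 52.5, 55.9, 72.5 and 58.9 CPM in transformed 4 to 8, and 30.2, 36.4 and 33.9 CPM in parental 1 to 3 (log2 fold change 0.70, SE 0.22, edgeR adjusted p = 0.106). Aimp2 and Aimp1 had log2 fold changes of 0.41 and 0.22. Of 28 tested ATF4 targets other than synthetases, 26 were positive with a median of 0.59, and 5 had an unadjusted p under 0.05. Over all tested genes 52.3% were positive and 22.2% had such a p (10.6% higher and 11.6% lower). Xpot, the tRNA exporter, lay higher in 5 of 5 transformed libraries (223 ± 34.3 CPM, SD, n = 5, against 165 ± 10.3 CPM in parental cells, SD, n = 3, edgeR adjusted p = 0.0988). It was the 1 gene of the 28 to do so, where 8.07% of all tested genes did. Phgdh, of serine synthesis, had 281 CPM in transformed 4 and 583 to 622 CPM in the other transformed libraries, against 290 to 366 CPM in parental ones. Cth, of cysteine synthesis, had 15.7 CPM in transformed 7 and at most 0.782 CPM in any other transformed library, against at most 0.176 CPM in a parental one. Among 10 genes for eIF2 and its kinases the median was 0.12, and 2 had an unadjusted p under 0.05 (22.2% of all genes). Eif2s1, the subunit phosphorylated by those kinases, had 242 ± 17.8 CPM in transformed cells (SD, n = 5) and 188 ± 9.86 CPM in parental cells (SD, n = 3), higher in 5 of 5 (edgeR adjusted p = 0.0587). Eif2s3x was likewise higher in 5 of 5 (log2 fold change 0.18), and Gcn1l1, the activator of the kinase Gcn2, in 3 of 5 (0.21). Of the 10 genes, 3 were higher in 5 of 5, against 8.07% of all tested genes.

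RNA polymerase III and tRNA maturation genes (23) had 13 positive and 10 negative members and a median of 0.05, with 7 higher and 2 lower at an unadjusted p under 0.05, where 10.6% of all tested genes were higher and 11.6% lower. Elac2, which cuts the 3′ ends of precursor tRNAs, had 99.7 ± 11.9 CPM in transformed cells (SD, n = 5) and 67.9 ± 9.74 CPM in parental cells (SD, n = 3), with an edgeR adjusted p = 0.0538. Polr3d and Polr3e, subunits of the polymerase, had log2 fold changes of 0.73 and 0.59 (edgeR adjusted p = 0.0552 and 0.0560), and all 3 were higher in 5 of 5 transformed libraries. These 3 are named because they had the smallest p of the 23. Of the 23, 6 were higher in 5 of 5 and 2 lower, against 8.07% and 9.69% of all tested genes. Polr3d passed in edgeR without the low-count filter. All 3 passed without transformed 4 (15.5% of all genes) and without transformed 7 (7.62%). Mitochondrial translation factors (19) had a median of 0.14, 4 had an unadjusted p under 0.05 (22.2% of all genes), and their mean was 0.01 in transformed 7. Gfm2, Mtrf1 and Gatc had log2 fold changes of 0.30, 0.35 and 0.24. The 6 cytosolic elongation and hypusine factors had a median of -0.03, with 1 higher and 1 lower at an unadjusted p under 0.05. Eef1g, on chromosome 19, was at -0.28, Eif5a at 0.39 and Eef1a1 at 0.11. Tarsl2, a relative of Tars outside the list, had 6.19 ± 1.07 CPM in transformed cells (SD, n = 5) and 4.88 ± 1.05 CPM in parental cells (SD, n = 3).

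**Figure D5:**
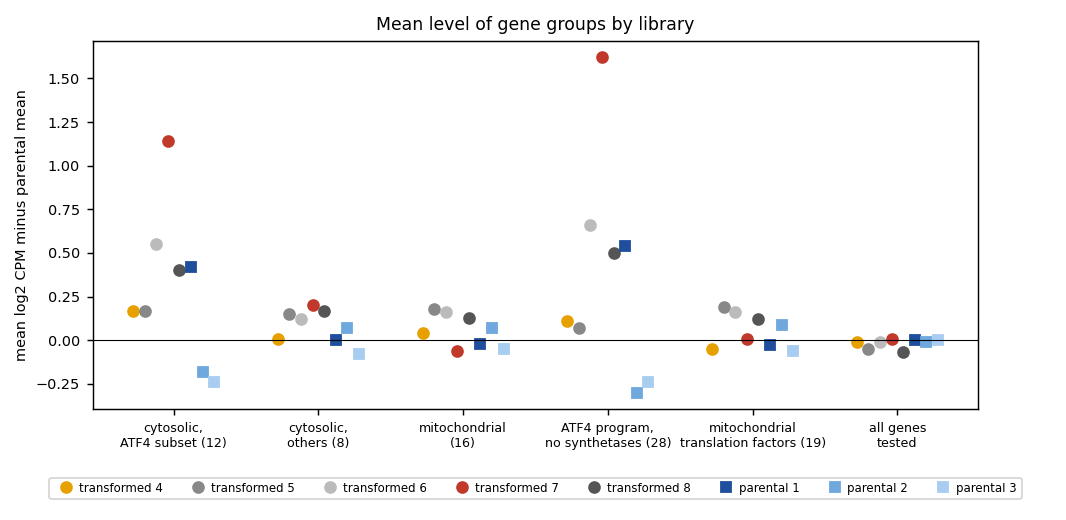
Mean log2 CPM of 5 gene groups and of all tested genes per library, with the parental mean set to 0 (vertical axis) and circles for transformed and squares for parental libraries. The ATF4-subset synthetases and the other ATF4 targets share a high transformed 7 (1.14 and 1.62) and a parental 1 (0.42 and 0.54) above transformed 4, 5 and 8, while the mitochondrial synthetases stay between -0.06 and 0.18.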

How the data were processed

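The authors deposited raw read counts per Ensembl gene, not normalised, with 1 column for each of the 8 libraries and 0 others. Per the submitters' processing notes, STAR 2.5.3a and featureCounts 1.5.3 were used with mm10 and GRCm38.p5. The sources used here name neither a strand setting nor a treatment of multi-mapping reads, so counts of overlapping genes are uncertain. Symbols and exon lengths came from GENCODE M21 (GRCm38), and promoters from RefSeq. Counts were tested over all 17733 genes kept by filterByExpr in R 4.3.3 with edgeR 4.0.16 (TMM factors, 2-sided quasi-likelihood F test with robust fitting, threshold 0.05 after Benjamini-Hochberg adjustment). The SE is the log2 fold change divided by the root of F. Group means use log2 CPM with a prior count of 2. The groups share no replicate numbers. The code was tested on simulated data. The members, gene lists and ATF4 subset were chosen with earlier results of these data known. Full statistics were given for the 4 cytosolic and 4 mitochondrial genes with the smallest p and the 3 smallest of each related list. Farsa, Rars, Nars, Eprs, Sars, Gars, Cars, Mars, Vars, Aars2, Sars2 and other members were described after their values were seen. Alternatives were DESeq2 1.42.0, limma-voom (limma 3.58.1), RLE factors, no filter, a lane term, either lane by itself, fits without 1 library, and transformed 4 and 7 left out together. Leaving out parental 1 and transformed 7 was added after the data were seen. All pairs of libraries within a group differed by more than counting noise (chi-square per degree of freedom of 18 or more).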

Additional observations from a re-analysis of the deposited data

Results flagged for a closer look

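Within the 5 transformed libraries, single libraries stood far from the others in 12 of 68 genes and group means examined by Dixon's ratio (gap to the nearest library over the whole range, critical value 0.71), where chance gives about 1 in 20. Of the 36 synthetases, 7 were marked, all through transformed 7. The share of all tested genes that this rule would mark was not computed. Transformed 7 was the highest of the 8 libraries for 26.7% of all tested genes and the lowest for 27%. Genes read from the same libraries are also not independent draws, so the 7 are not read as a trait of the synthetases. Transformed 7 was far above the others for Aars (0.722), Eprs (0.772), Farsb (0.718), Sars (0.815) and Wars (0.819), and far below them for Aars2 (0.742) and Sars2 (0.818). Among related genes, transformed 7 was far above the others for Cth (0.960), Gfm2 (0.799), Mtrf1 (0.905) and Eef1a1 (0.837), and transformed 4 was far below them for Phgdh (0.885).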

How the results depend on the processing

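Of the 36 synthetases, 11 passed in 1 or more of 16 alternatives and 25 in none. With the setting added later, described below, 15 passed in 1 or more of 17, and Cars, Gars, Iars and Tars passed in that setting alone. The number of called members was 4 in DESeq2, 7 in lane 6 and 11 without transformed 4 and 7, and leaving out 1 library gave 0 to 7 (7 without transformed 4, 1 without transformed 7). It was 0 with RLE factors, no filter, limma-voom, a lane term and lane 7. Of all genes, 1856 were called in DESeq2, 3565 in lane 6, 0 in lane 7, 94 with a lane term and 5042 without transformed 4 and 7, and leaving out 1 library gave 26 (without parental 3) to 2728 (without transformed 4). The 0 in lane 7 is from edgeR, with 507 genes at an unadjusted p under 0.05. Leaving out parental 1 and transformed 7 together was added after seeing the data, with libraries chosen on the outcome. It called 539 genes and 5 members (Cars, Farsb, Gars, Iars and Tars), with a cytosolic median of 0.44, a mitochondrial one of 0.11 and a difference of 0.33, and supports nothing. Over all 17 alternatives the cytosolic median lay between 0.25 and 0.67. The mitochondrial median was 0.23 in lane 6 and 0.18 without transformed 4 and 7, and the cytosolic minus mitochondrial difference was 0.03 in lane 6. In all, 36 log2 fold changes took the opposite sign, 35 of them of 10 synthetases. In lane 6 these were Aars at -0.19, Aars2 at 0.07, Hars2 at 0.20, Lars2 at 0.14 and Vars2 at 0.10. In lane 7 they were Kars at -0.03, Vars at 0.04, Iars2 at -0.13, Yars2 at -0.34 and Gcn1l1 at -0.00. With a lane term it was Lars2 at 0.06. Without transformed 4 and 7 they were Aars at -0.00, Aars2 at 0.01, Fars2 at -0.01, Hars2 at 0.08, Lars2 at 0.13 and Vars2 at 0.05. Without parental 1 and transformed 7 they were Vars at 0.12, Aars2 at 0.02, Lars2 at 0.08, Vars2 at 0.06 and Yars2 at -0.01. With 1 library left out, these genes crossed 0: Aars (-0.02 to 0.43), Vars (-0.19 to 0.07), Aars2 (-0.14 to 0.02), Hars2 (-0.20 to 0.00), Iars2 (-0.02 to 0.15), Lars2 (-0.09 to 0.08), Vars2 (-0.06 to 0.08) and Yars2 (-0.09 to 0.20). The cause of these changes was not tested. No paired analysis was possible because the groups share no replicate numbers. Depth was ample for the members, whose lowest count was 350.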
